A study of Mus musculus with 6 samples.

Results

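The macrophage and dendritic cell genes described here are 40 genes listed by symbol: pan-leukocyte genes, the CSF1 axis, Fc receptors and their adaptors, general macrophage genes, scavenger and lipid receptors, pattern-recognition genes, integrins and monocyte genes, and dendritic cell genes. Of the 40, 39 had a row among the 32285 gene IDs of the count table, and Clec7a was not analysed here. All 39 passed the filter on low counts that left 15955 genes for testing. Of these, 37 had at least 10 counts in every library, and Cd209a and Siglech did not.

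The study sequenced whole-kidney RNA from female mice aged 100 weeks with a mutation in TrnE, which encodes the tRNA for glutamate in mitochondrial DNA. The 3 high-load kidneys had labelled mutation loads of 75%, 75% and 80%, and the 3 control kidneys 10%, 5% and 15%. They are referred to as high-load 1 to 3 and control 1 to 3. The controls thus also carried the mutation, at a low level, and no kidney without it was among the 6 used here. The sources used here do not state the strain or how the load was measured. The labels give each library its own mouse code, and p-values measure only the spread between these libraries.

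Tissue macrophages are seeded before and after birth and maintained by signalling through the CSF1 receptor, while monocytes arrive from blood and mature in the tissue. In the kidney, resident macrophages lie between the tubules, clear debris and carry the adhesion receptor F4/80 and the high-affinity Fc receptor. Dendritic cells depend on the FLT3 receptor and present antigen to T cells. In bulk RNA, a difference in the number of cells of a type and a difference in RNA per cell cannot be told apart.

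Total counts ranged from 17449270 to 18865997 per library. Values below are CPM, which divide each count by its library's total times a TMM factor (0.944 to 1.14, the highest in high-load 1), and a fold change is the high-load level over that of controls. Tests are edgeR's quasi-likelihood test with Benjamini-Hochberg adjustment over all 15955 genes. Proximal tubule markers, the check of the kidney label, were present in every library, with summed levels of 3128, 18830 and 9747 CPM in high-load 1 to 3 and 15890, 16980 and 22680 CPM in control 1 to 3. The androgen-regulated Kap made up a large part of these sums, with 9589 CPM in high-load 2. All 9 tubule markers had a log2 fold change below 0, with a median of -0.87, or -0.49 without high-load 1. In 6 of the 9 every high-load library was below every control, beside 15.8% of all tested genes. At an adjusted p under 0.05, DESeq2 called 2 of the 9 lower, beside 3.77% of 16408 genes. EdgeR called 0, beside 0% of all tested genes. High-load 1 stood apart: its tubule sum was the lowest of the 6, and its summed B and plasma cell markers reached 1203 CPM, against 324 and 240 CPM in the other high-load libraries and 152, 133 and 96.4 CPM in controls.

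Most macrophage genes stood higher in high-load kidneys, while the CSF1 receptor, the efferocytosis receptor Mertk, the inhibitory Fc receptor Fcgr2b and most dendritic cell genes did not separate the groups. The scavenger receptor Cd163 and the pattern-recognition genes Cd14 and Clec4n overlapped between groups as well. Of the 39 genes, 35 had a fitted log2 fold change above 0, beside 50.9% of all tested genes, and 22 had a fold above 2, beside 6.25%. Their median log2 fold change was 1.09, and that of all tested genes was 0.0067. In 28 genes every high-load library exceeded every control, beside 17.1% of all tested genes, and in 0 genes every high-load library was below every control, beside 15.8%.

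None of the 39 passed an adjusted p of 0.05 in edgeR, a threshold that 0.0188% of all tested genes passed as higher and 0% as lower. The smallest adjusted p among the 39 was 0.0936. At an adjusted p under 0.1, 12 were higher and 0 lower, beside 2.59% and 0.608% of all tested genes. At an unadjusted p under 0.05, 31 were higher and 0 lower, beside 14% and 10.2%. DESeq2 called 26 higher and 0 lower at an adjusted p under 0.05, beside 6.47% and 3.77% of 16408 genes, and limma-voom called 0. Without high-load 2, edgeR called 20 of the 39 higher and 1, Mertk, lower. That fit called more genes over the whole table as well, 544 higher and 263 lower of 16283 tested. With any other library left out, edgeR called 0 of the 39.

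**Figure D1:**
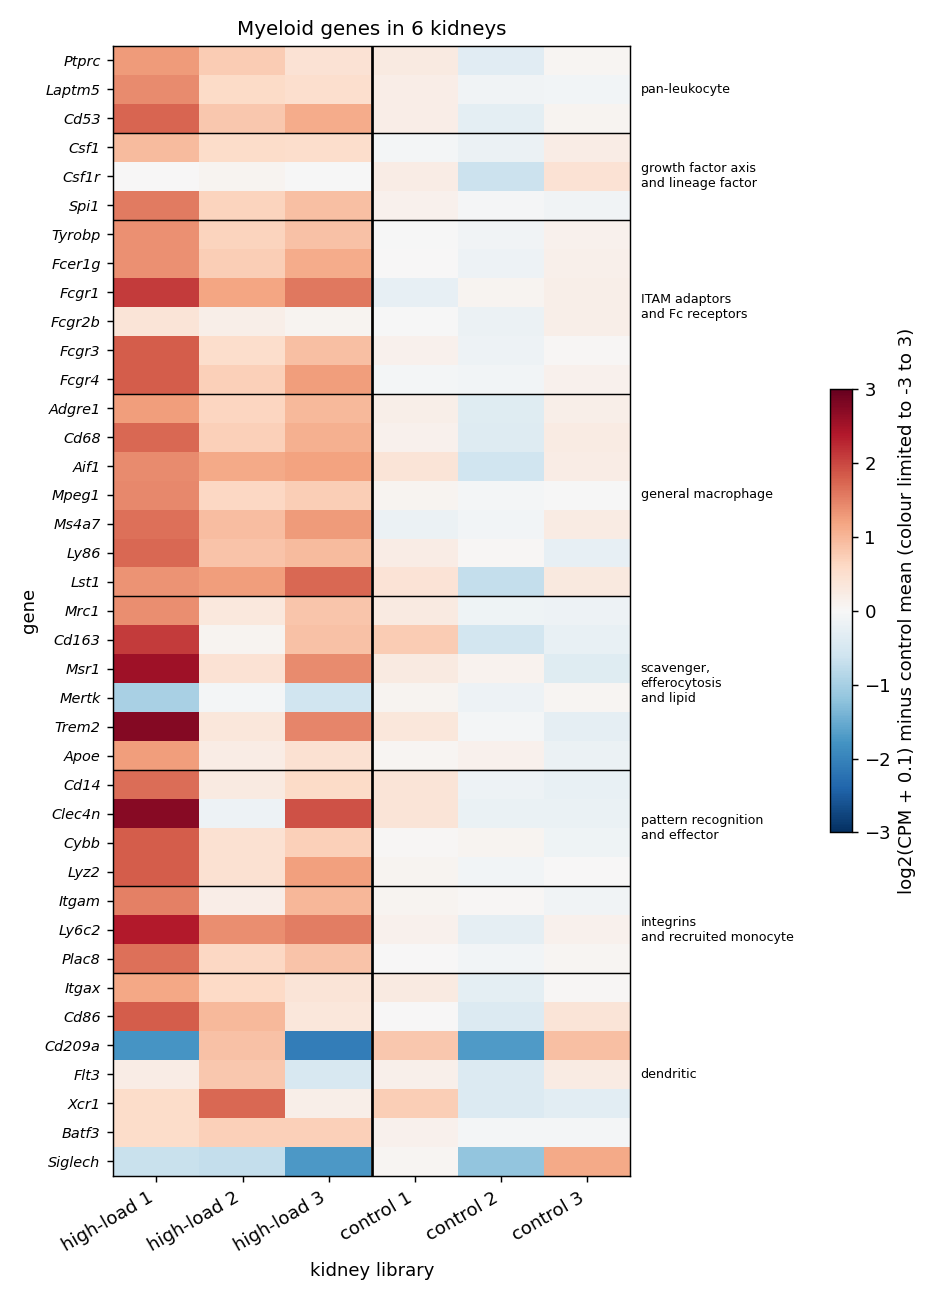
Each row is 1 of the 39 genes, grouped by role, and each column 1 kidney library; colour gives log2(CPM + 0.1) relative to the mean over the 3 controls. High-load 1 holds the highest value in 31 genes, and the dendritic rows at the bottom lack the even red of the macrophage rows.

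High-load 1 was the highest of the 6 libraries in 31 of the 39 genes, beside 29.4% of all tested genes. Control 2, the kidney with the lowest load, was the lowest in 22, beside 22.9%. High-load 2 was the lowest of the 3 high-load libraries in 26 genes and the highest in 6, namely Csf1r, Mertk, Cd209a, Flt3, Xcr1 and Batf3. Without high-load 1 the median log2 fold change of the 39 was 0.75. The groups then did not overlap in 28 genes, a count that leaving out a library could not lower. The tubule markers stood lower where most macrophage genes stood higher. The part of the tubule transcripts, and of the B and plasma cell transcripts of high-load 1, in these values was not tested.

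The pan-leukocyte genes Ptprc, Laptm5 and Cd53 all stood higher. Ptprc, which encodes CD45, had 83.6, 59.1 and 47.0 CPM in high-load kidneys, against 41.8, 27.4 and 36.1 CPM in controls (log2 fold change 0.85, SE 0.24, edgeR adjusted p 0.129). Cd53, a tetraspanin of leukocytes, had 58.1, 29.97 and 37.5 CPM in high-load kidneys and 19.8, 14.1 and 18.2 CPM in controls (log2 fold change 1.27, SE 0.26, edgeR adjusted p 0.0967). The groups did not overlap in either gene. Laptm5, a lysosomal membrane protein of blood cells, averaged 103.7 ± 39.8 CPM in high-load kidneys and 56.0 ± 6.89 CPM in controls (SD, n = 3 each).

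In the CSF1 axis the ligand stood higher and the receptor did not. Csf1, the growth factor that macrophages need to survive, had 61.4, 46.4 and 45.5 CPM in high-load kidneys and 30.5, 27.9 and 36.7 CPM in controls (log2 fold change 0.69, SE 0.16, edgeR adjusted p 0.102). Csf1r, its receptor, had 112.7, 118.1 and 110.2 CPM in high-load kidneys and 129.7, 71.8 and 150.5 CPM in controls. The 3 high-load values of Csf1r lay between control 2 and the other controls, so the groups overlapped. Its log2 fold change was -0.05 with SE 0.25 (edgeR adjusted p 0.928), and the sign was positive with library totals as scaling, where it was 0.07. The log2 ratio of Csf1 to Csf1r was -1.17 ± 0.25 in high-load kidneys and -1.83 ± 0.40 in controls (SD, n = 3 each), a difference of 0.66 (exact two-sided permutation p 0.1, the smallest that 3 against 3 allows, and 0.28 adjusted over 14 ratios). The groups were barely apart, with high-load 2 at -1.349 and control 2 at -1.364. An exon of Csf1r overlaps one of Hmgxb3 on the opposite strand, and the sources used here do not say whether strand was used in counting.

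Spi1, which encodes the lineage factor PU.1, had 27.03, 14.4 and 17.1 CPM in high-load kidneys, against 9.99, 8.87 and 8.44 CPM in controls, with no overlap (log2 fold change 1.10, SE 0.25, edgeR adjusted p 0.0998). Among 5 further tested receptors and ligands of myeloid growth factors, 3 had an unadjusted p under 0.05 and were higher, beside 14% of all tested genes. These were the receptors Csf2ra, Csf3r and Csf2rb, and the other 2, both ligands, did not pass. Csf2ra, the GM-CSF receptor alpha chain, averaged 38.9 ± 3.69 CPM in high-load kidneys and 25.97 ± 2.74 CPM in controls (SD, n = 3 each).

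Fc receptors bind the constant part of antibodies, and most signal through the gamma chain encoded by Fcer1g, which carries an activating ITAM motif as the adaptor Tyrobp (DAP12) does. The inhibitory receptor Fcgr2b carries an ITIM instead. The promoter-side sequences of the high-affinity receptor Fcgr1, the low-affinity activating receptors Fcgr3 and Fcgr4 and the shared chain Fcer1g are shown. PU.1 is a known regulator of myeloid Fc receptor genes, and its part in the differences seen here was not tested. Each line gives the 150 bases before the RefSeq transcription start (GRCm38.p6), 5′ to 3′ on the gene's strand, and capitals mark CTTCCTC, the reverse complement of the ETS-type motif GAGGAAG.
Fcgr1, chr3:96293970-96294119, minus strand: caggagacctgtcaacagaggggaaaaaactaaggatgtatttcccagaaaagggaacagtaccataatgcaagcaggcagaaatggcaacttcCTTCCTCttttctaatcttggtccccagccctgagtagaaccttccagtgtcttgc
Fcgr3, chr1:171059395-171059544, minus strand: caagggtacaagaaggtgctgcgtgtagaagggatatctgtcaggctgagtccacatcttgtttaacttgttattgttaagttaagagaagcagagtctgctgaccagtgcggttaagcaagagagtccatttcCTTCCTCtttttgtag
Fcgr4, chr1:171018776-171018925, plus strand: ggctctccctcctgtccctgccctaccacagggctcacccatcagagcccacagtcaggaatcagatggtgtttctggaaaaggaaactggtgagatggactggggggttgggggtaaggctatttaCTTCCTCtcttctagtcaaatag
Fcer1g, chr1:171234350-171234499, minus strand: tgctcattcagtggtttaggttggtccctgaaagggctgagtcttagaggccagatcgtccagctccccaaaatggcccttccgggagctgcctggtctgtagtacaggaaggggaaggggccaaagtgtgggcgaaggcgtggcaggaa

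The capital run ended 49, 9 and 16 bases before the start in Fcgr1, Fcgr3 and Fcgr4. A further RefSeq start of Fcgr3 had the run ending 0 bases before it. Both Fcgr3 windows lie inside the annotated span of the gene (chr1:171051174-171064935), not at its upstream end. The letters GAGGAAG were not in the 250 bases before the start of Fcer1g on either strand. Windows were found for 30 of the 39 genes, and 9 had none. In the 250 bases before the start, GAGGAAG on either strand was in 9 of the 30 (30%), against 12% of 27025 mouse genes with a window. The shorter run GAGGAA, which GAGGAAG contains, was in 15 (50%), against 25.9%, and AGGAA, which both contain, was in 24 (80%), against 63.5%. These are letter matches and not measured binding.

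Of the 6 adaptor and Fc receptor genes, 5 stood higher without overlap. Fcgr1 had 24.6, 12.98 and 17.3 CPM in high-load kidneys, against 4.72, 6.02 and 6.37 CPM in controls. The lowest high-load value lay far above the highest control, and the log2 fold change was 1.68 (SE 0.26, edgeR adjusted p 0.0936), or 1.41 to 1.88 with each library left out. Fcgr4 had 32.0, 14.8 and 21.5 CPM in high-load kidneys and 8.65, 8.51 and 9.75 CPM in controls (log2 fold change 1.35, SE 0.28, edgeR adjusted p 0.0967).

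Fcgr3 had 64.5, 26.4 and 34.2 CPM in high-load kidneys and 19.9, 16.4 and 18.6 CPM in controls (log2 fold change 1.19, SE 0.32, edgeR adjusted p 0.121). Both adaptors stood higher in every high-load library. Fcer1g had 46.8, 30.2 and 39.1 CPM in high-load kidneys and 18.2, 16.2 and 20.2 CPM in controls. Tyrobp had 47.1, 28.8 and 33.9 CPM in high-load kidneys and 18.03, 16.95 and 19.9 CPM in controls. Their log2 fold changes were 1.09 and 1.00, with edgeR adjusted p of 0.0936 and 0.0946. Per kilobase of exon, Tyrobp and Fcer1g were the most abundant of the 6, at 54.9 and 44.3 CPM per kb in high-load kidneys and 27.4 and 20.8 CPM per kb in controls.

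Fcgr2b had 95.7, 82.4 and 77.6 CPM in high-load kidneys, against 72.7, 65.0 and 82.2 CPM in controls, and control 3 lay above high-load 3. Its log2 fold change was 0.22 with SE 0.12 (edgeR adjusted p 0.320). The log2 ratio of Fcgr2b to Fcgr3 was 1.13 ± 0.54 in high-load kidneys and 2.00 ± 0.13 in controls (SD, n = 3 each), a difference of -0.87 without overlap (exact two-sided permutation p 0.1, the smallest that 3 against 3 allows, and 0.28 adjusted over 14 ratios). Fcgr2b, Fcgr3 and Fcgr4 share stretches of sequence and an exon of Fcgr2b overlaps Gm38204 on the opposite strand, so reads could be split between them. Among 16 further tested genes of ITAM and ITIM signalling, 14 had an unadjusted p under 0.05 and were higher, and 0 were lower. Over all tested genes these shares were 14% and 10.2%. Plcg2, a phospholipase downstream of these receptors, averaged 36.7 ± 7.61 CPM in high-load kidneys and 19.8 ± 0.98 CPM in controls (SD, n = 3 each). Pirb, an inhibitory receptor, averaged 27.4 ± 8.20 CPM in high-load kidneys and 12.7 ± 1.35 CPM in controls (SD, n = 3 each).

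**Figure D2:**
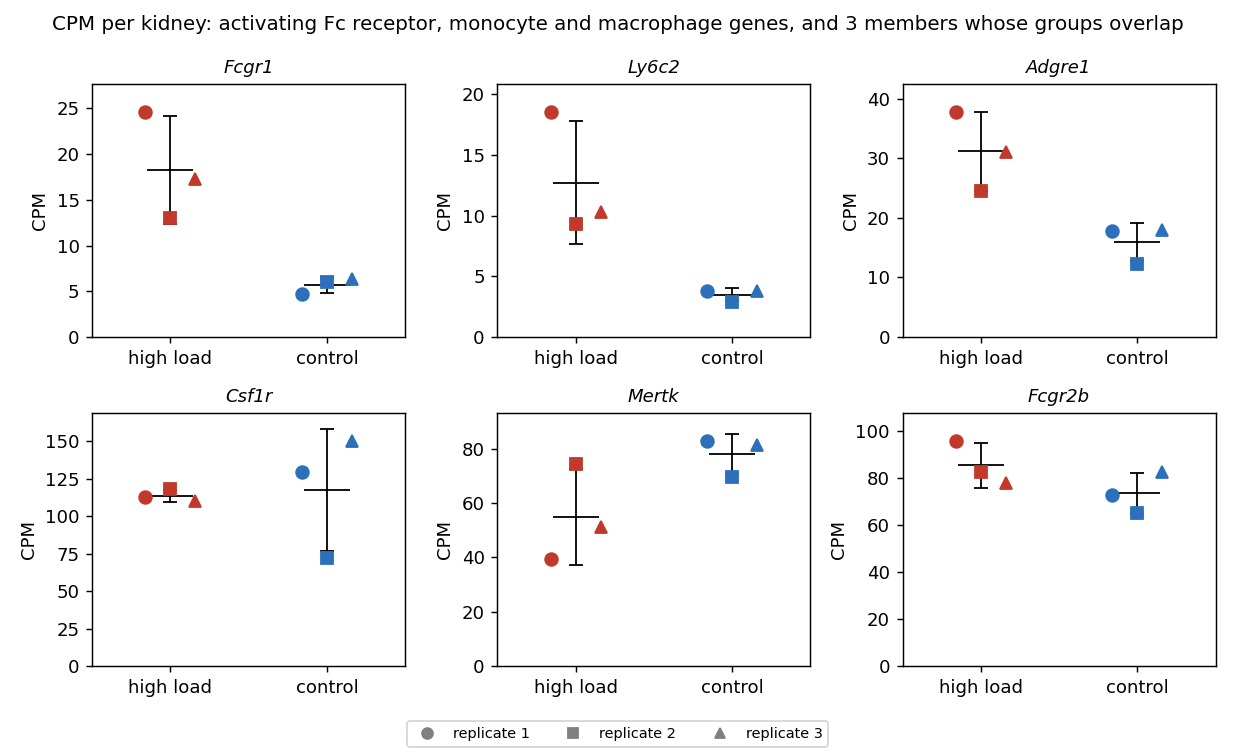
CPM of 6 genes on linear axes, with high-load kidneys left of controls; points are libraries, with 1 marker shape per replicate number, and bars give the mean and SD of 3. Fcgr1, Ly6c2 and Adgre1 do not overlap between groups, while Csf1r, Mertk and Fcgr2b do.

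All 7 general macrophage genes stood higher without overlap. Adgre1, which encodes F4/80, had 37.8, 24.5 and 31.1 CPM in high-load kidneys, against 17.8, 12.3 and 17.9 CPM in controls (log2 fold change 0.96, SE 0.21, edgeR adjusted p 0.0981). Ms4a7, a membrane protein of macrophages, had 26.6, 16.02 and 20.7 CPM in high-load kidneys and 7.43, 7.96 and 10.1 CPM in controls (log2 fold change 1.31, SE 0.22, edgeR adjusted p 0.0936). Mpeg1, the pore-forming perforin-2, was the most abundant of the 7 per kilobase, at 33.7 CPM per kb in high-load kidneys and 17.1 CPM per kb in controls.

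The other 4 of the group were Cd68, a lysosomal glycoprotein, Aif1 (IBA1), an actin-binding protein, Ly86 (MD-1), a partner of RP105, and Lst1, a leukocyte transmembrane protein. Their log2 fold changes were 1.21, 1.22, 1.22 and 1.42, with edgeR adjusted p of 0.107, 0.0998, 0.0983 and 0.108. Aif1 averaged 9.92 ± 1.05 CPM in high-load kidneys and 4.25 ± 1.39 CPM in controls (SD, n = 3 each), and its high-load libraries were within 2 CPM of each other. Lst1 was the 1 gene of the 7 in which high-load 1 was not the highest library, with 5.44, 5.05 and 7.07 CPM in high-load kidneys and 2.77, 1.22 and 2.56 CPM in controls. Among 10 further tested resident macrophage genes, complement C1q included, 6 had an unadjusted p under 0.05 and were higher, and 0 were lower. Over all tested genes these shares were 14% and 10.2%. The 3 of the 10 with the smallest p were Cx3cr1, C1qa and C1qc.

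The scavenger, efferocytosis and lipid genes spread more widely. Trem2, a lipid-sensing receptor that signals through Tyrobp, had 20.4, 3.75 and 8.30 CPM in high-load kidneys, against 3.72, 2.80 and 2.40 CPM in controls. High-load 2 exceeded the highest control by under 0.1 CPM, and the log2 fold change was 1.86 (SE 0.60, edgeR adjusted p 0.145), or 1.02 without high-load 1 and 2.27 without high-load 2. Msr1, the class A scavenger receptor, had 9.36, 2.06 and 4.18 CPM in high-load kidneys and 1.83, 1.64 and 1.14 CPM in controls, with a log2 fold change of 1.76 (SE 0.56, edgeR adjusted p 0.144), or 1.02 without high-load 1.

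Cd163, the haemoglobin scavenger receptor, had 9.36, 2.23 and 3.95 CPM in high-load kidneys and 3.66, 1.40 and 1.80 CPM in controls, so that control 1 lay above high-load 2. Mrc1, the mannose receptor CD206, had 36.6, 17.4 and 24.9 CPM in high-load kidneys and 16.9, 12.7 and 12.6 CPM in controls (log2 fold change 0.90, SE 0.28, edgeR adjusted p 0.140). The groups did not overlap for Mrc1, but high-load 2 lay within 1 CPM of control 1. Apoe, a lipid carrier that macrophages and other cells make, was the most abundant of the 39 per kilobase, at 413 CPM per kb in high-load kidneys and 254 CPM per kb in controls (edgeR adjusted p 0.197).

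Mertk, a receptor through which macrophages engulf dying cells, had a fitted difference below 0. It had 39.3, 74.3 and 51.3 CPM in high-load kidneys, against 83.0, 69.8 and 81.5 CPM in controls. High-load 2 lay inside the control range and the other 2 high-load libraries below it. The log2 fold change was -0.51 with SE 0.23 (edgeR adjusted p 0.225). Without high-load 2 it was -0.79 with an edgeR adjusted p of 0.0452, and without high-load 1 it was -0.31. The log2 ratio of Mertk to Adgre1 was 0.06, 1.60 and 0.72 in high-load kidneys and 2.22, 2.497 and 2.18 in controls, a difference of -1.51 without overlap (exact two-sided permutation p 0.1, 0.28 adjusted over 14 ratios). The ratio of Csf1r to Adgre1 differed by -0.94, also without overlap and with the same p-values.

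Among 11 further genes of TREM2-linked lipid handling, 8 had an unadjusted p under 0.05 and were higher, and 0 were lower. Over all tested genes these shares were 14% and 10.2%. Gpnmb, a lysosome-associated glycoprotein, had 67.3, 20.2 and 30.8 CPM in high-load kidneys and 6.44, 2.55 and 1.47 CPM in controls (edgeR adjusted p 0.0946). Lgals3, the lectin galectin-3, averaged 198.0 ± 82.1 CPM in high-load kidneys and 49.1 ± 3.71 CPM in controls (SD, n = 3 each; edgeR adjusted p 0.0919). The third by p was Ctss, a lysosomal protease of antigen-presenting cells. Spp1 and Ctsd, 2 of the 11 picked for their level, averaged 6364 and 1602 CPM in high-load kidneys, where Trem2 averaged 10.8 CPM. Which cells the transcripts of the 11 genes came from was not tested.

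**Figure D3:**
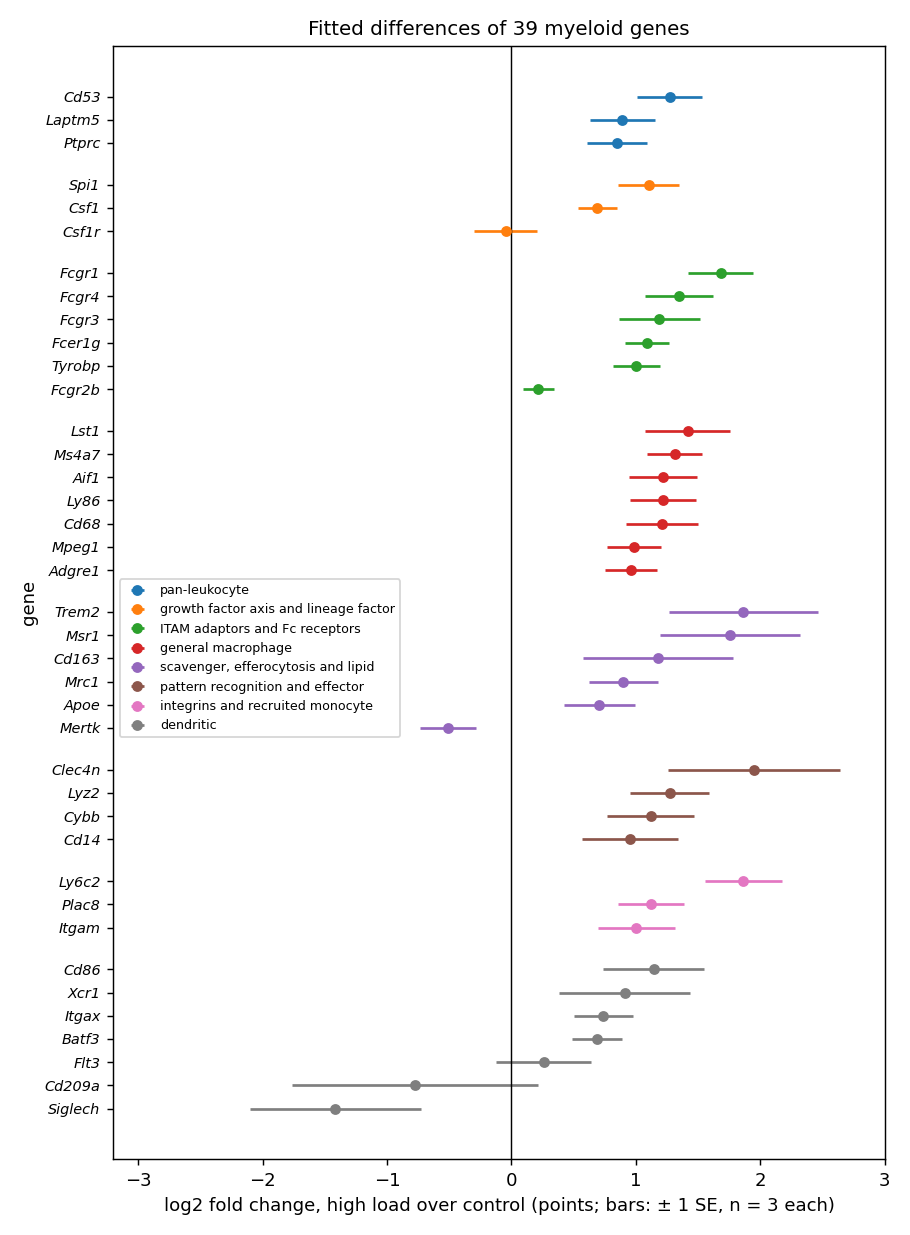
Fitted log2 fold changes, high load over control, of the 39 genes by role, with bars of 1 SE (n = 3 each). Values run from -1.42 (Siglech) to 1.95 (Clec4n), with the general macrophage genes between 0.96 and 1.42.

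The 4 pattern-recognition and effector genes measured all had fitted differences above 0, with overlap in Cd14 and Clec4n. Lyz2, the lysozyme of myeloid cells, had 600.2, 236.4 and 402.7 CPM in high-load kidneys, against 180.6, 161.6 and 171.6 CPM in controls (log2 fold change 1.27, SE 0.32, edgeR adjusted p 0.114). Cybb, the catalytic subunit of the phagocyte NADPH oxidase, had 95.7, 37.2 and 44.8 CPM in high-load kidneys and 27.8, 29.0 and 25.1 CPM in controls (log2 fold change 1.12, SE 0.35, edgeR adjusted p 0.140). In both, the 3 controls lay close together and the high-load libraries spread widely. Lyz2 has a close paralog in Lyz1, and reads could be split between them.

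Clec4n, which encodes the fungal-sensing lectin dectin-2, had the highest fitted fold change of the 39, with 9.36, 1.19 and 5.23 CPM in high-load kidneys and 1.78, 1.15 and 1.14 CPM in controls. High-load 2 lay inside the control range, and the log2 fold change was 1.95 (SE 0.69, edgeR adjusted p 0.163), or 1.24 without high-load 1. Cd14, the co-receptor for lipopolysaccharide, had 68.2, 25.7 and 31.6 CPM in high-load kidneys and 27.8, 18.9 and 18.1 CPM in controls, with control 1 above high-load 2. Of the other 5 oxidase subunits, 4 had an unadjusted p under 0.05 and were higher, with 0 lower, beside 14% and 10.2% of all tested genes. Among the 4 were the cytosolic subunit Ncf4 and the GTPase Rac2. Ncf4 averaged 11.7 ± 5.35 CPM in high-load kidneys and 4.28 ± 0.71 CPM in controls (SD, n = 3 each). Cyba, the membrane partner of Cybb that many cell types express, was chosen after its values were seen, as the exception: 183.1 ± 31.6 CPM in high-load kidneys and 224.1 ± 5.33 CPM in controls (SD, n = 3 each, log2 fold change -0.29, edgeR adjusted p 0.264).

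The integrin and monocyte genes Itgam, Ly6c2 and Plac8 all stood higher without overlap. Ly6c2, the Ly6C antigen of classical monocytes, had 18.6, 9.34 and 10.3 CPM in high-load kidneys, against 3.83, 2.86 and 3.81 CPM in controls (log2 fold change 1.86, SE 0.31, edgeR adjusted p 0.0936), or 1.49 to 2.05 with each library left out. Plac8, abundant in monocytes and other leukocytes, had 77.8, 37.8 and 44.8 CPM in high-load kidneys and 24.9, 23.0 and 25.8 CPM in controls (log2 fold change 1.12, SE 0.27, edgeR adjusted p 0.107). Itgam, the CD11b integrin chain, had 32.8, 13.3 and 23.1 CPM in high-load kidneys and 12.2, 11.7 and 10.6 CPM in controls (log2 fold change 1.00, SE 0.31, edgeR adjusted p 0.138).

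Ly6c2 is nearly identical in sequence to Ly6c1, an endothelial gene, and Itgam overlaps Gm49368 on the same strand, so reads of both are uncertain. The log2 ratio of Ly6c2 to Adgre1 was -1.34 ± 0.29 in high-load kidneys and -2.18 ± 0.07 in controls (SD, n = 3 each), a difference of 0.84 without overlap (exact two-sided permutation p 0.1, 0.28 adjusted over 14 ratios). The ratio of Plac8 to Adgre1 differed by 0.09, with overlap (exact two-sided permutation p 0.5). Among 9 further genes of recruited monocytes, 3 had an unadjusted p under 0.05 and were higher, Spn and Nr4a1 among them, and 0 were lower. At this threshold 14% of all tested genes were higher and 10.2% lower. Of the 9, 8 had a log2 fold change above 0 and 1 below, beside 50.9% of all tested genes above 0. In 3 of the 9 every high-load library exceeded every control, beside 17.1% of all tested genes. DESeq2 called 0 of the 9 at an adjusted p under 0.05, beside 6.47% of 16408 genes higher and 3.77% lower. Ccr2, another of the 9, was chosen after its values were seen. Its groups overlapped (log2 fold change 0.36, SE 0.19, edgeR adjusted p 0.289). Spn, the sialophorin CD43, had 29.6, 16.7 and 16.4 CPM in high-load kidneys and 11.4, 8.81 and 14.1 CPM in controls.

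The 7 dendritic genes were uneven: 5 had a log2 fold change above 0 and 2 below, with a median of 0.69. Of the 7, 3 (Itgax, Cd86 and Batf3) had an unadjusted p under 0.05 and were higher, beside 14% of all tested genes. DESeq2 called 0 of the 7, beside 6.47% of 16408 genes higher and 3.77% lower, and in so few genes 0 is near these shares. Batf3, a factor that conventional type 1 dendritic cells need, was low but even, with 3.31, 3.75 and 3.73 CPM in high-load kidneys, against 2.44, 2.13 and 2.13 CPM in controls (log2 fold change 0.69, SE 0.20, edgeR adjusted p 0.130). Itgax, the CD11c integrin chain of dendritic cells and some macrophages, had 34.9, 23.6 and 20.3 CPM in high-load kidneys and 18.7, 12.6 and 15.96 CPM in controls (log2 fold change 0.74, SE 0.24, edgeR adjusted p 0.146). These 2 were the genes of the 7 whose groups did not overlap.

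Cd86, a costimulatory ligand for T cells, had 18.1, 10.0 and 6.51 CPM in high-load kidneys and 5.16, 3.83 and 6.70 CPM in controls, with control 3 above high-load 3 (log2 fold change 1.14, SE 0.40, edgeR adjusted p 0.163). Flt3, the growth factor receptor of dendritic cells, had 3.17, 4.78 and 1.89 CPM in high-load kidneys and 3.00, 2.01 and 3.21 CPM in controls. Its log2 fold change was 0.26 (SE 0.38, edgeR adjusted p 0.707) and turned to -0.11 without high-load 2. Xcr1, a chemokine receptor of type 1 dendritic cells, had 2.69, 6.19 and 2.06 CPM in high-load kidneys and 3.05, 1.34 and 1.42 CPM in controls, and its log2 fold change of 0.91 was 0.30 without high-load 2.

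Cd209a, a lectin of monocyte-derived dendritic cells, fell into high and low libraries in both groups. It had 12, 75 and 8 counts in high-load kidneys (0.567, 4.07 and 0.445 CPM) and 70, 10 and 76 counts in controls (3.88, 0.608 and 4.14 CPM). High-load 1, high-load 3 and control 2 were low, and high-load 2, control 1 and control 3 were high. The log2 fold change was -0.77 with SE 0.99 (edgeR adjusted p 0.660), and without high-load 2 it was -2.49. Siglech, a lectin of plasmacytoid dendritic cells, had 12, 10 and 4 counts in high-load kidneys and 18, 6 and 41 counts in controls, with overlap (log2 fold change -1.42, SE 0.69, edgeR adjusted p 0.255).

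The 3 libraries low in Cd209a were the 3 highest in the sum of 8 neutrophil markers. S100a8, a granulocyte calcium-binding protein, had 3.78, 0.326 and 8.18 CPM in high-load kidneys and 0.444, 7.05 and 0.545 CPM in controls. S100a9, its partner, had 2.41, 0.271 and 8.35 CPM in high-load kidneys and 0.277, 6.81 and 0.708 CPM in controls. The 8 neutrophil markers summed to 8.03, 0.814 and 24.4 CPM in high-load kidneys and 0.999, 20.1 and 1.80 CPM in controls, and 2 of the 8 passed the filter. Csf3r, named above with the growth factor receptors, was also listed as a neutrophil marker but was not in this sum. It had 13.4, 7.17 and 12.0 CPM in high-load kidneys and 6.16, 6.93 and 4.47 CPM in controls. For Csf3r, high-load 2 thus lay above control 2, unlike in the sum. The defining marker Ly6g had 3, 1 and 4 counts in high-load kidneys and 0, 2 and 0 counts in controls. The part of these cells in the values of Cd209a was not tested.

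**Figure D4:**
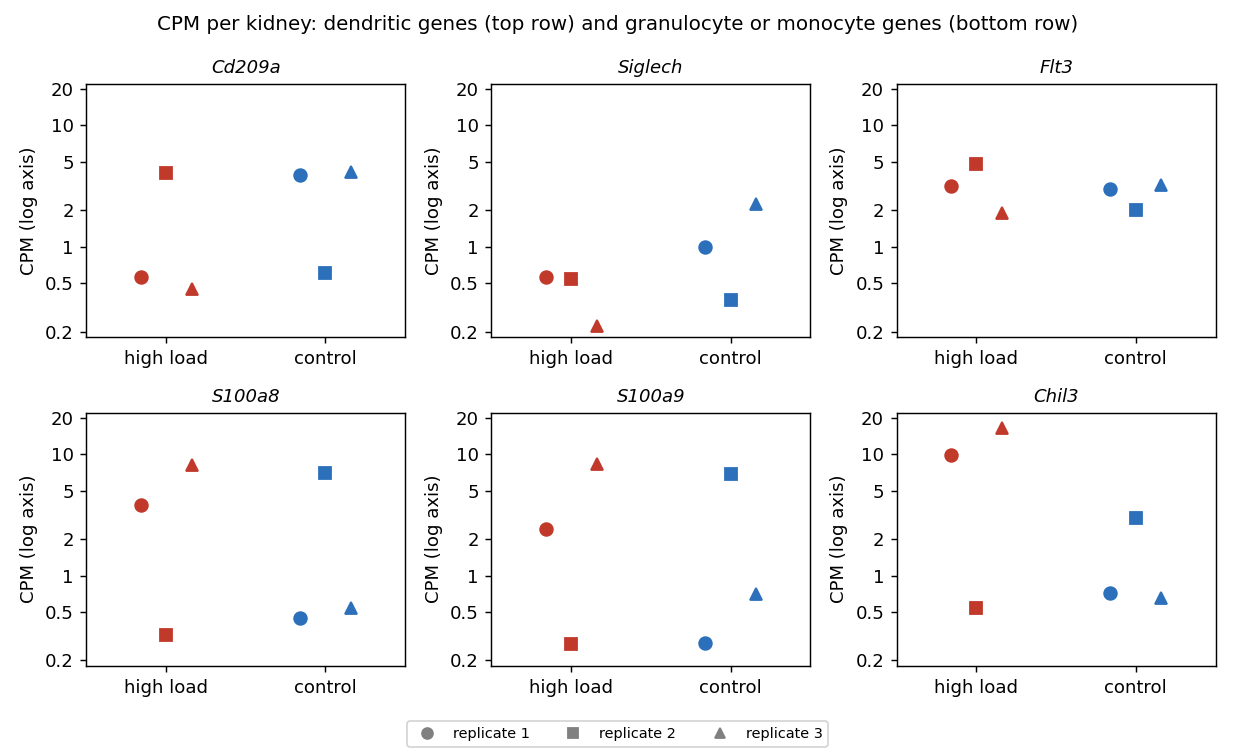
CPM on log axes of Cd209a, Siglech and Flt3 (top) and of S100a8, S100a9 and Chil3 (bottom), with high-load kidneys left of controls; points are libraries, with 1 marker shape per replicate number. Cd209a is low in high-load 1, high-load 3 and control 2, the libraries in which S100a8 and S100a9 are high.

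Of 11 further dendritic genes, 10 had a log2 fold change above 0, beside 50.9% of all tested genes. Their median was 0.50, and that of all tested genes was 0.0067. Of the 11, 1 had an unadjusted p under 0.05 and was higher, a share near the 14% of all tested genes. It was Irf4, a factor of type 2 dendritic cells and of plasma cells, with 19.1, 9.18 and 7.52 CPM in high-load kidneys and 5.66, 5.17 and 5.07 CPM in controls (log2 fold change 1.17, SE 0.36, edgeR adjusted p 0.137). The next were Irf8 and Wdfy4, whose groups overlapped. The ratios of Itgax, Flt3, Cd209a, Batf3 and Xcr1 to Adgre1 all overlapped between groups, with differences of -0.24, -0.77, -2.02, -0.28 and -0.11 on the log2 scale and exact two-sided permutation p of 0.3, 0.4, 0.2, 0.5 and 0.8.

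By role, the average of log2 CPM over the members, less the average of the 3 controls, was 1.51, 0.88 and 1.14 in high-load kidneys and 0.17, -0.31 and 0.13 in controls for the general macrophage genes. For the integrin and monocyte genes it was 1.85, 0.74 and 1.13 in high-load kidneys and 0.08, -0.11 and 0.03 in controls. For the dendritic genes it was 0.27, 0.71 and -0.37 in high-load kidneys and 0.30, -0.63 and 0.33 in controls. Macrophage and monocyte means separated the groups in all 6 libraries, and the dendritic mean did not. The scavenger mean of high-load 2, at 0.22, lay below that of control 1, at 0.30.

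**Figure D5:**
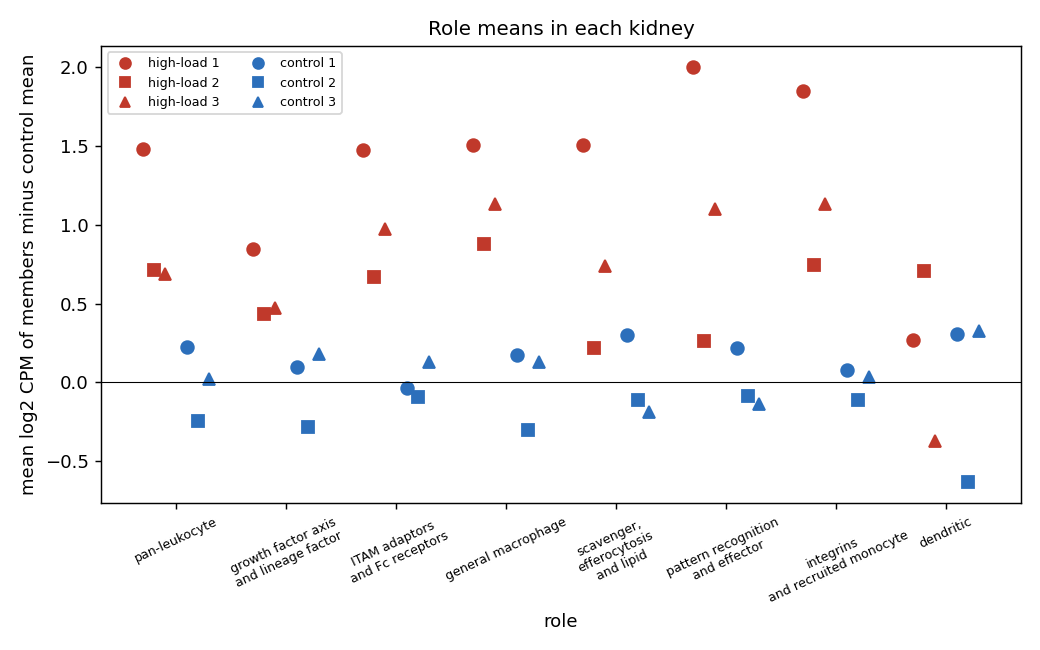
Average log2 CPM of each role's members less the control average, 1 point per library, with high-load kidneys left of controls in each role. High-load 1 is at or above 0.84 in all roles but the dendritic one, where the groups overlap, as they also do for the scavenger role.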

How the data were processed

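RNA was sequenced from 3 high-load and 3 control kidneys as paired reads of 150 bp, from TruSeq libraries on a DNBSEQ instrument, per the labels' protocols. The authors deposited raw counts per Ensembl gene in a single table. Per the submitters' processing notes, the tools included featureCounts 2.0.1, HISAT2 2.2.1, fastp 0.23.2, SAMtools 1.11 and edgeR, with build mm10. The strand setting, the annotation and the handling of multiply mapped reads: not given in the sources used here.

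Symbols, exon lengths and overlaps came from GENCODE M21. Genes were kept by filterByExpr (minimum count 10), scaled with TMM and tested with robust quasi-likelihood fits in edgeR 4.0.16 (R 4.3.3), with group as the term, over all 6 libraries and Benjamini-Hochberg adjustment at 0.05. Standard errors were derived from the F statistic. Ratios of 2 genes used raw counts + 0.5 and an exact permutation test. Alternatives were DESeq2 1.42.0, limma-voom 3.58.1, other scalings and filters, no robust estimation, mitochondrially encoded genes left out, a replicate block, load as a number, a looser threshold and each library left out. Tests were run first on simulated counts.

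The 40 genes and the further lists were chosen with earlier results of these data known. All 40 could be named, and of each further list the 3 tested genes with the smallest p. A few genes that this rule covers are not reported here. Libraries of a group differed from each other by 19.98 to 93.1 times the counting variance (chi-square over degrees of freedom), so none was counted as a repeat. Promoter windows came from RefSeq (GRCm38.p6).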

Additional observations from a re-analysis of the deposited data

How the results depend on the processing

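Of the 39 genes, Csf1r and Flt3 changed direction under an alternative. Csf1r had a log2 fold change of 0.068 with library totals, 0.030 with limma-voom, 0.018 with the replicate block and 0.0010 with load as a number, and -0.30 to 0.17 with each library left out (0.03 without control 1, 0.17 without control 3). Flt3 ran from -0.11 to 0.53 with each library left out. Over all genes, 3 were called higher and 0 lower. These counts were 46 and 4 without the filter, 1062 and 619 with DESeq2, 8 and 2 with load as a number, and 414 and 97 at an adjusted p under 0.1. Limma-voom called 0 higher and the replicate block 1. Of the 39, 1 (Fcgr1) was called without the filter, 26 with DESeq2 and 12 at an adjusted p under 0.1. With each library left out, 0 to 544 genes were called higher, 0 to 263 lower, and 0 to 20 of the 39 higher. The highest counts came without high-load 2. The median log2 fold change of the 39 stayed between 0.75 (without high-load 1) and 1.24 (without high-load 2). In 28 to 32 genes every high-load library exceeded every control. Leaving out a library could not lower this count, because the CPM were not scaled anew. Library totals moved the median of all genes to 0.13. Same-numbered libraries had correlations of 0.124, -0.182 and 0.049 between their deviations. The labels state no pairing, and so few values cannot exclude one. The cause of these differences was not tested. Siglech, with 4 to 41 counts per library, and Cd209a, with 8 to 76, rest on the fewest counts at this depth.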

Other observations

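All 6 B and plasma cell genes and 5 of 8 tested T and NK cell genes were highest in high-load 1, beside 29.4% of all tested genes. Cd79a, part of the B cell receptor, had 63.1, 11.7 and 7.01 CPM in high-load kidneys and 5.66, 5.04 and 4.79 CPM in controls, and Jchain, the joining chain of secreted antibody, had 965.3, 278.1 and 211.6 CPM in high-load kidneys and 121.6, 103.9 and 69.5 CPM in controls. The groups did not overlap in either gene. Of the T and NK cell genes, 3 had an unadjusted p under 0.05 and were higher, beside 14% of all tested genes, and control 2 was the lowest library in 7, beside 22.9%.

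Some genes outside the naming rule were chosen after their values were seen. Chil3, a chitinase-like protein of monocytes and granulocytes, had 9.78, 0.543 and 16.5 CPM in high-load kidneys and 0.721, 2.98 and 0.654 CPM in controls. The lectins Clec4d and Clec4e, which signal through Fcer1g, were likewise uneven. Clec4d had 6.85, 0.814 and 1.95 CPM in high-load kidneys and 0.333, 0.608 and 0.381 CPM in controls, and Clec4e had 4.77, 0.217 and 7.13 CPM in high-load kidneys and 0.666, 0.304 and 0.872 CPM in controls. In Chil3 and Clec4e, high-load 2 was lower than all 3 controls. Of 5 mast cell genes, Mcpt4 and Cma1 had at most 1 count in any library and Tpsb2 at most 2. Cpa3 had 7, 1 and 2 counts in high-load kidneys and 0, 1 and 0 counts in controls. Kit, the 1 of the 5 that passed the filter, had 28.6, 30.6 and 28.1 CPM in high-load kidneys and 22.35, 19.0 and 27.6 CPM in controls.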
